A study of Mus musculus with 4 samples.

Results

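Tetraspanins are membrane proteins that cross the membrane 4 times and gather integrins, immunoglobulin-domain proteins and proteases into patches at the cell surface and in late endosomes. The L6 family, to which the surface marker candidate Tm4sf1 belongs, shares that layout but is a separate family. A set of 30 mouse genes, 3 of the L6 family and 27 tetraspanins, was chosen by gene symbol. Of these, 29 were measured, each by 1 transcript cluster (a group of probes that covers a transcript). They are among 19938 genes with a cluster paired with 1 gene symbol. Clusters paired with several symbols were left out. Tspan7 was not analysed here, because no cluster was paired with it alone.

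The genes were read in 4 sorted populations with 1 array each. The first pair was sorted on day 9 of neural culture from mouse ESCs (embryonic stem cells), as CORIN+LMX1A::GFP+ cells and, as their counterpart, CORIN-LMX1A::GFP+ cells. These ESCs carry GFP at the Lmx1a locus, were made in a 129SVEV background and were given FGF8b and SHH during the culture, so both populations of this ESC-derived pair share the knock-in, the GFP+ gate and the factors, and are called ESC-derived CORIN+ and CORIN- cells here. The second pair was CORIN+ and CORIN- cells sorted at E11.5 from the ventral midbrain (VM) of C57BL/6N fetuses, without a reporter. How many embryos or cultures went into an array is not given in the sources used here. CORIN, a membrane-bound protease, marks the floor plate, and comparing the populations asks which genes mark the progenitors of midbrain dopaminergic neurons.

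All values are log2 signals as the authors deposited them, and a log2 fold is the CORIN+ minus the CORIN- array. Since each population has 1 array, no fold could be checked on replicates or tested. A gene was called when its signals differed at least 2-fold. Corin, the gene of the sorted antigen, was at 13.10 in ESC-derived CORIN+ cells and 11.13 in their CORIN- counterparts, and at 11.43 in fetal CORIN+ cells, against 7.28 in the fetal CORIN- array. Of 8 other floor plate genes measured, all 8 had a higher signal in the CORIN+ array of both pairs, and 1 reached 2-fold in the ESC-derived and 3 in the fetal pair. In bulk populations, fewer cells of a type and less RNA per cell cannot be told apart.

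Tm4sf1 was the only member at least 2-fold higher in CORIN+ cells of both pairs, and the leukocyte tetraspanin Cd53 had the largest log2 fold of all members, in the fetal pair alone. In the ESC-derived pair 1 of 29 members was called higher and none lower. Over all 19938 genes, 0.376% were called higher and 0.522% lower, and a single gene among 29 cannot be read against such shares. In the fetal pair 4 of 29 members were called higher, namely Cd53, Tm4sf1, Cd82 and Cd63, and none lower. Here 3.16% of all genes were called higher and 0.456% lower. The members' share was above that of all genes, as a description with no test. Tm4sf1 had been picked by the study from these same arrays, and members were chosen with earlier results known. Its calls were thus fixed beforehand, and the members' shares at every threshold are partly circular. Leaving Tm4sf1 out, the fetal calls were Cd53, Cd82 and Cd63, and the ESC-derived cells had no call. At 3-fold, no member was called in the ESC-derived pair (0.0351% of all genes were higher), and Cd53 and Tm4sf1 were in the fetal pair (1.34%). At 1.5-fold, 3 members were higher in the ESC-derived pair (1.52% of all genes) and 6 in the fetal pair (5.92%), while no member was lower in either (2.32% and 2.8%). The median log2 fold of the 29 members was 0.06 in the ESC-derived and 0.08 in the fetal pair, beside medians of 0.0021 and -0.04 over all genes.

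The stretches before the starts of the 4 called genes are shown because these genes differ in how many CG dinucleotides they hold, a feature that the choice of members did not use. CG-rich stretches (CpG islands) are common at starts of widely expressed genes, whereas many genes of restricted expression lack them. Each sequence is the 250 bases before a start in the RefSeq table of build GRCm38.p6, 5′ to 3′ on the strand of the gene, with CG in capitals. They lie at chr3:57301989-57302238 (minus strand) for Tm4sf1, chr3:106790150-106790399 (minus) for Cd53, chr10:128909095-128909344 (plus) for Cd63 and chr2:93462951-93463200 (minus) for Cd82. A gene can have other starts, and for Cd82 the one of 4 windows with the most CG is shown.
Tm4sf1: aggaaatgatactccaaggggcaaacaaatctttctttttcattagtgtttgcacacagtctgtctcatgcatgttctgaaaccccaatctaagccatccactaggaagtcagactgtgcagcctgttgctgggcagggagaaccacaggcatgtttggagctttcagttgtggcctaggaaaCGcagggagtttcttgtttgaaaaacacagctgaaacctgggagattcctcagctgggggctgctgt
Cd53: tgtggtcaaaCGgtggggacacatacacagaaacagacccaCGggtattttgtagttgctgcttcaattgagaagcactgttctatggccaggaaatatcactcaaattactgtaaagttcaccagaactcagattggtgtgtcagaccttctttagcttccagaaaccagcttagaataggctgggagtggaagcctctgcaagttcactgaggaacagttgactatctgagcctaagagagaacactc
Cd63: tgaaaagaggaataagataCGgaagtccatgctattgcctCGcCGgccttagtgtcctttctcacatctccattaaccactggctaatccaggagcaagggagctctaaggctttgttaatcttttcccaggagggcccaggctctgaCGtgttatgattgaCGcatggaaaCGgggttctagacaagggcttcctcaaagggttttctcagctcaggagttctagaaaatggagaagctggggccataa
Cd82: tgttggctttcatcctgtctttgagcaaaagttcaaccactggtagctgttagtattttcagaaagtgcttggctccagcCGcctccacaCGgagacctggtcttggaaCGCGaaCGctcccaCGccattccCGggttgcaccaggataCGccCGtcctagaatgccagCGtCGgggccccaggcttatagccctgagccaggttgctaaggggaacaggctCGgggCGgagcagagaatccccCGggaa

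The Tm4sf1 window holds 1 CG, the Cd53 window 2, the Cd63 window 6 and the Cd82 window 14. Windows were found for 28 of the 30 members, all but Tspan18 and Upk1b, and the window with the most CG was taken for each gene. Of these 28, the 3 with 2 or fewer CG were Tm4sf1, Cd53 and Tspan32, which is 10.7%, against 28% of all 27025 genes in the table. That table is another set than the 19938 genes read on the array, and the 28 include Tspan7, which was not measured. The shares are thus descriptions with no test. Of the 28, 15 held 10 or more (53.6%), against 40.2% of all genes. Among them Tspan5 had 33 CG, Tspan4 24 and Tspan15 23. The GC box GGGCGG, which itself contains CG and was searched on both strands, was found in 1 or more copies in 14 of 28 members (50%) and in 34.4% of all genes. Cd82 held 1 copy, while no copy was in the windows of Tm4sf1, Cd53 and Cd63. These are counts of letters in one window and say nothing of which factors bind there.

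Tm4sf1, known from endothelial and tumour cells, where it takes part in migration, stood apart from its relatives in the L6 family. Its log2 signal was 9.22 in the CORIN+ and 8.12 in the CORIN- array of the ESC-derived pair. In the fetal VM the CORIN+ array read 9.45 and the CORIN- array 7.33. Both CORIN+ arrays thus lay above both CORIN- arrays, by 2.15-fold in the ESC-derived pair and by 4.33-fold in the fetal pair. By fold it stood 50th of all genes in the first and 113th in the second. The study picked Tm4sf1 from these same arrays for being higher in both, so its folds are a description and no independent evidence. Among the surface candidates the paper tested by RT-PCR, it reports only Lrtm1, not Tm4sf1, as specific to the E11.5 VM. Tm4sf4, a gene of intestine and liver, had log2 signals of 6.68 in ESC-derived CORIN+ cells and 6.78 in their CORIN- counterparts, and of 6.75 in CORIN+ and 6.81 in CORIN- fetal cells. Tm4sf5, known from liver and its tumours, was at 7.75 in the CORIN+ and 7.69 in the CORIN- array of the ESC-derived pair, and at 7.62 in CORIN+ and 7.65 in CORIN- fetal cells. Of their log2 folds, the one farthest from 0 was -0.10, for Tm4sf4 in the ESC-derived pair, and both genes lay below the median signal of every array.

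**Figure D1:**
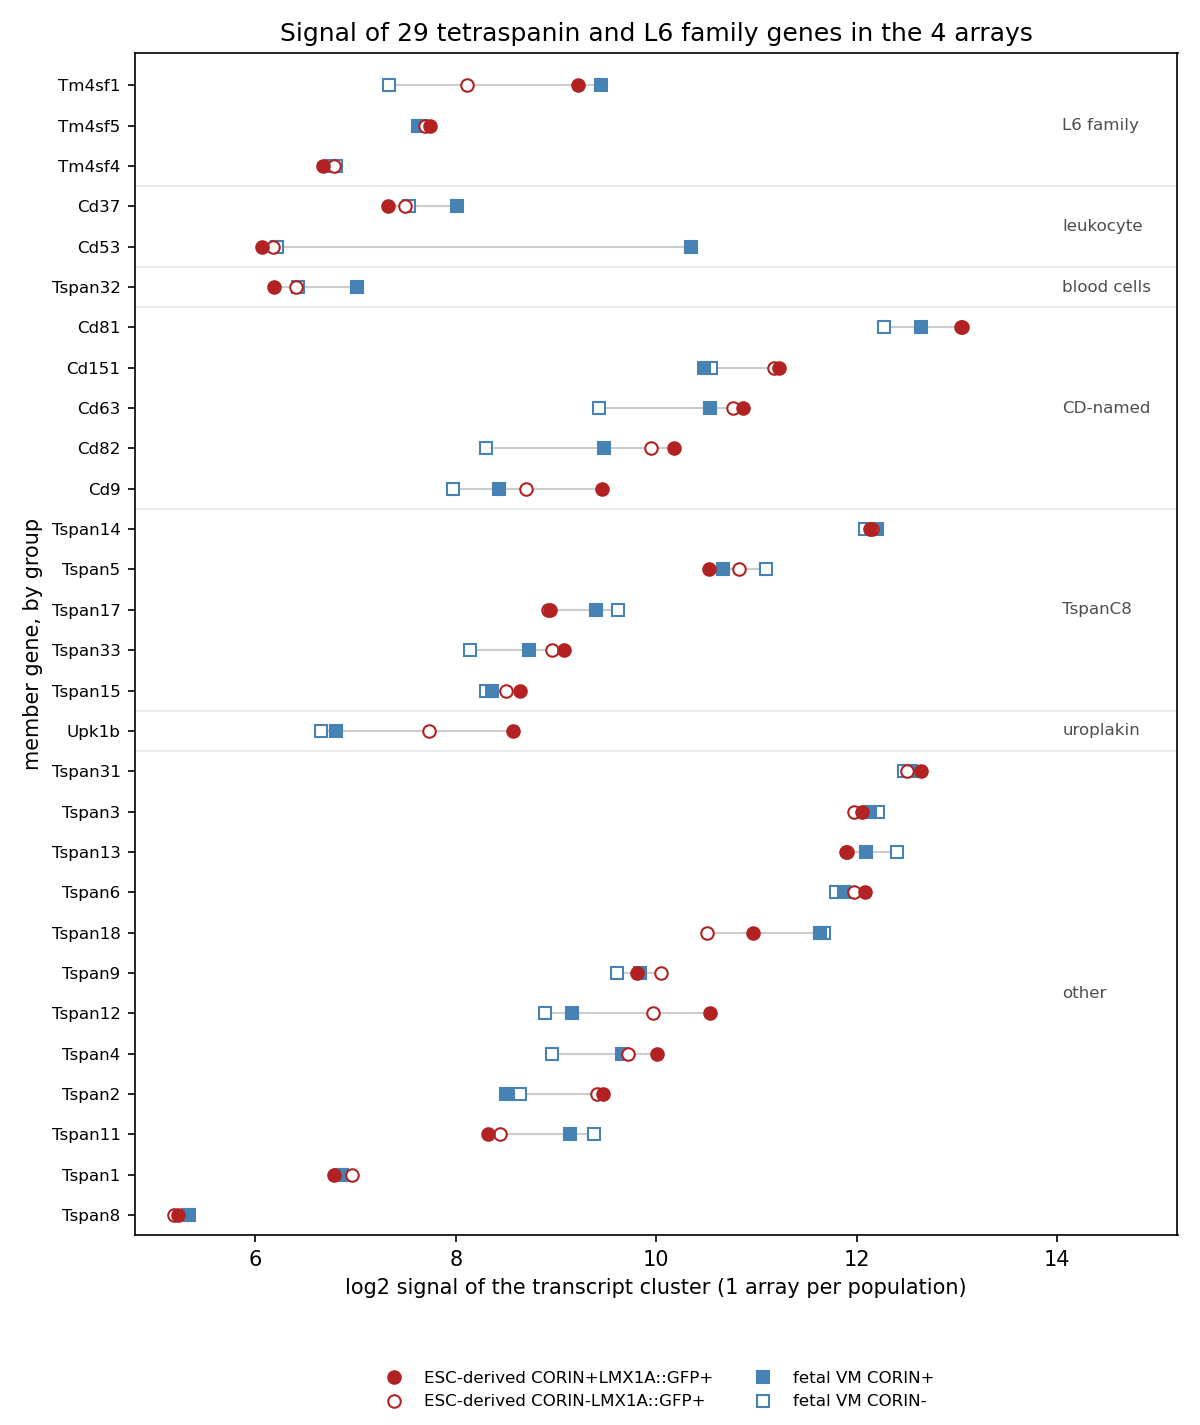
Log2 signal (horizontal axis) of 29 tetraspanin and L6 family genes, grouped by family or role, with 1 array per population. Filled symbols are CORIN+ and open symbols CORIN- populations, circles are ESC-derived and squares fetal VM cells, and grey lines join the lowest and highest array; Tm4sf1 has both filled symbols to the right of both open ones, and Cd53 has 3 arrays between 6.07 and 6.22 and fetal CORIN+ at 10.34.

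Genes of other cell types moved with the fetal comparison. Of 15 macrophage markers, all 15 had a higher signal in fetal CORIN+ cells and 14 were at least 2-fold higher, with a summed linear signal of 21740 in CORIN+ and 1806 in CORIN- cells. All 12 mesenchyme markers were at least 2-fold higher, with sums of 25168 in CORIN+ and 5410 in CORIN- cells. Of 12 endothelial markers 3 were at least 2-fold higher (sums of 5164 in CORIN+ and 2464 in CORIN- cells). The endothelial list was mixed, with 9 signals higher and 3 lower in CORIN+ cells and a median log2 fold of 0.42. Of 7 erythroid markers 5 were at least 2-fold higher (27346 in CORIN+ and 8631 in CORIN- cells). The macrophage sums were 1973 in ESC-derived CORIN+ cells and 1935 in their CORIN- counterparts, and none of the 15 markers was called. The mesenchyme sum was lower in ESC-derived CORIN+ cells, at 4844 against 8051 in the CORIN- array, and so was the endothelial sum, at 2182 against 2962 in the CORIN- array. The erythroid sums were 795 in ESC-derived CORIN+ cells and 786 in their CORIN- counterparts. Tm4sf1 was higher in the CORIN+ array of both pairs. The part of these cell types in the folds of Tm4sf1, Cd53, Cd82 and Cd63 was not tested in either pair.

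The leukocyte tetraspanins are set apart from the rest. Cd53, found on most white blood cells, had a log2 signal of 10.34 in CORIN+ and 6.22 in CORIN- cells of the fetus, a measured difference of 17.4-fold. It was at 6.07 in the CORIN+ and 6.18 in the CORIN- array of the ESC-derived pair. The fetal CORIN+ array alone was high, and the other 3 arrays placed Cd53 at percentiles 18.9 to 20.4 of all signals. With so dim a signal in the fetal CORIN- array the size of the fold is uncertain, and it was 3.64 on the log2 scale with 32 added to the linear signals, against 4.12 without. Cd37, most abundant on B cells, was at 8.01 in CORIN+ and 7.53 in CORIN- cells of the fetus, which is 1.40-fold, and at 7.32 in ESC-derived CORIN+ cells and 7.49 in their CORIN- counterparts. Tspan32, another tetraspanin of blood cells, was at 7.01 in CORIN+ and 6.43 in CORIN- cells of the fetus, and at 6.19 in the CORIN+ and 6.40 in the CORIN- array of the ESC-derived pair. For all 3 genes the fetal CORIN+ array was the highest of the 4, although only Cd53 reached 2-fold. Without Cd37 and Cd53, 3 of 27 members were called higher in the fetal pair, beside 3.16% of all genes. They were Cd82, Cd63 and Tm4sf1, whose call was fixed beforehand. The median log2 fold of the 27 was 0.07, beside -0.04 over all genes.

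Among the 5 tetraspanins with CD names that many tissues express, Cd82 and Cd63 were called in the fetal pair and none in the ESC-derived pair. Cd82, known as a suppressor of metastasis, had a log2 signal of 9.48 in CORIN+ and 8.30 in CORIN- cells of the fetus (2.26-fold). It was at 10.18 in ESC-derived CORIN+ cells and 9.95 in their CORIN- counterparts. Cd63, a protein of late endosomes and exosomes, was at 10.54 in CORIN+ and 9.43 in CORIN- cells of the fetus (2.16-fold), and at 10.86 in the CORIN+ and 10.77 in the CORIN- array of the ESC-derived pair. For both genes the fetal CORIN- array was the lowest of the 4, and fetal CORIN+ cells lay below both ESC-derived arrays. Cd53 was likewise higher in CORIN+ cells within the fetal pair, but its fetal CORIN+ array lay above both ESC-derived arrays. Cd9, needed on the egg for fusion with sperm, was at 9.46 in ESC-derived CORIN+ cells and 8.70 in their CORIN- counterparts (1.70-fold), and at 8.43 in CORIN+ and 7.98 in CORIN- fetal cells (1.37-fold). Cd81, which many tissues express, was at 13.04 in the CORIN+ and 13.05 in the CORIN- array of the ESC-derived pair, and at 12.65 in CORIN+ and 12.28 in CORIN- fetal cells. Its cluster had the highest mean signal of the members over the 4 arrays, at percentile 96.6 or higher in every array. Cd151, which binds laminin-binding integrins, had log2 folds of 0.05 in the ESC-derived and -0.07 in the fetal pair, and all 4 arrays lay between 10.48 and 11.22.

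The TspanC8 tetraspanins accompany the protease ADAM10 to the cell surface, where it cleaves Notch among other targets. None of the 5 in the member set was called in either pair. Tspan10, also of this group, was measured and is given with the rest of the family. Tspan5 had a lower signal in CORIN+ cells of both pairs, at 10.52 in ESC-derived CORIN+ cells and 10.83 in their CORIN- counterparts, and at 10.67 in CORIN+ and 11.09 in CORIN- fetal cells. It had the lowest log2 fold of all members in both pairs (-0.31 and -0.43), and 12 of 12 neuronal markers had a lower signal in the same arrays, with medians of -0.62 in the ESC-derived and -0.52 in the fetal pair. Whether neurons account for Tspan5 was not tested. Tspan33, known from red cell precursors, was at 8.73 in CORIN+ and 8.14 in CORIN- cells of the fetus (1.51-fold), and at 9.08 in the CORIN+ and 8.96 in the CORIN- array of the ESC-derived pair. Tspan17 was at 8.94 in ESC-derived CORIN+ cells and 8.92 in their CORIN- counterparts, and at 9.40 in CORIN+ and 9.62 in CORIN- fetal cells. Tspan15 had log2 folds of 0.14 in the ESC-derived and 0.06 in the fetal pair, and Tspan14 is described with the brightest members. Adam10 itself, named after its values were seen, was at 11.19 in ESC-derived CORIN+ cells and 10.94 in their CORIN- counterparts, and at 11.20 in CORIN+ and 11.06 in CORIN- fetal cells.

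After Tm4sf1, the members with the largest log2 folds in the ESC-derived pair were Upk1b, Cd9, Tspan12 and Tspan18, all under 2-fold. Upk1b, a protein of the plaques that line the bladder, was at 8.57 in the CORIN+ and 7.73 in the CORIN- array of the ESC-derived pair (1.79-fold). It was at 6.81 in CORIN+ and 6.66 in CORIN- fetal cells, at percentiles 30.6 and 27.4 of those arrays. The other uroplakins Upk1a, Upk2, Upk3a and Upk3b had log2 folds between -0.22 and -0.03 in the ESC-derived pair. Tspan12, which strengthens Norrin signalling through the receptor FZD4 in vessels of the retina, was at 10.53 in ESC-derived CORIN+ cells and 9.97 in their CORIN- counterparts (1.48-fold), and at 9.16 in CORIN+ and 8.89 in CORIN- fetal cells. Fzd4, named after its values were seen, was at 7.87 in the CORIN+ and 8.54 in the CORIN- array of the ESC-derived pair, the opposite order to Tspan12, and at 7.87 in CORIN+ and 7.52 in CORIN- fetal cells, the same order as Tspan12. Of the other genes listed with this receptor, Ndp had log2 folds of 0.25 in the ESC-derived and -0.52 in the fetal pair. Those of Lrp5 were -0.28 and 0.57, and those of Lrp6 -0.05 and 0.22. Tspan18, known from endothelial cells, was at 10.97 in ESC-derived CORIN+ cells and 10.51 in their CORIN- counterparts (1.37-fold), and at 11.64 in CORIN+ and 11.68 in CORIN- fetal cells. Of these, Upk1b and Cd9 passed 1.5-fold. In the same array 6 of 10 motile cilium markers were at least 2-fold higher, with sums of 5850 in CORIN+ and 2814 in CORIN- cells. Of 8 pluripotency markers, all 8 had a lower signal in ESC-derived CORIN+ cells and 6 reached 2-fold. Their median log2 fold was -1.85 and their sums were 925 in CORIN+ and 4435 in CORIN- cells. The part of either list in the ESC-derived folds of Tm4sf1, Upk1b, Cd9, Tspan12 and Tspan18 was not tested.

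**Figure D2:**
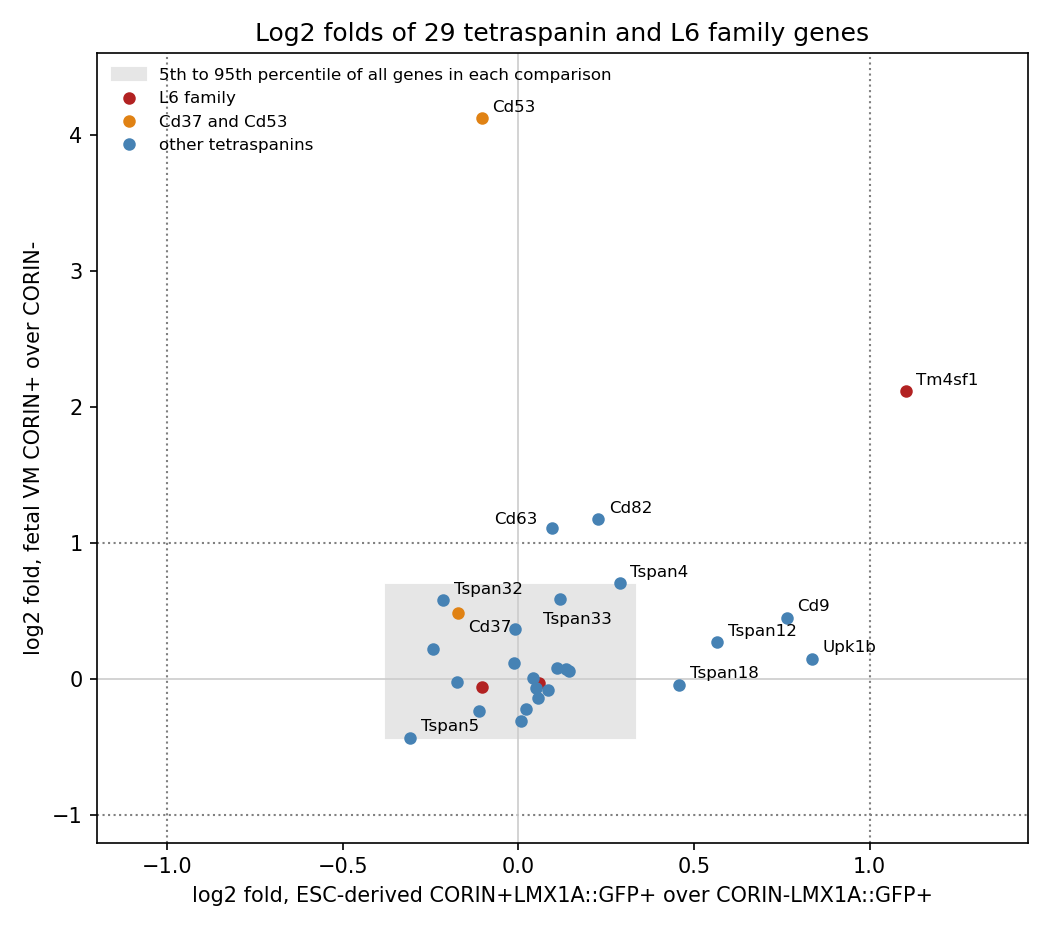
Log2 fold in the ESC-derived pair (horizontal axis) and in the fetal pair (vertical axis) of the 29 genes, CORIN+ over CORIN-, with 1 array per population. Dotted lines mark 2-fold and the grey box spans the 5th to 95th percentile of all genes; Tm4sf1 (1.10 and 2.12) is the only point past 2-fold in both, and Cd53 (-0.10 and 4.12), Cd82 (0.23 and 1.17) and Cd63 (0.10 and 1.11) pass it in the fetal pair.

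Of the remaining tetraspanins, Tspan4, a protein of the migrasomes that moving cells leave behind, came closest to 2-fold in the fetal pair. Its log2 signal was 9.66 in CORIN+ and 8.96 in CORIN- fetal cells (1.63-fold), and 10.01 in ESC-derived CORIN+ cells and 9.72 in their CORIN- counterparts (1.22-fold). Tspan13 was at 12.10 in CORIN+ and 12.40 in CORIN- fetal cells, and at 11.90 in both ESC-derived populations. Tspan11 was at 9.14 in CORIN+ and 9.38 in CORIN- fetal cells, and at 8.33 in the CORIN+ and 8.44 in the CORIN- array of the ESC-derived pair. Tspan9, first known from platelets, was at 9.81 in ESC-derived CORIN+ cells and 10.05 in their CORIN- counterparts, and at 9.83 in CORIN+ and 9.61 in CORIN- fetal cells, so the order of the populations differed between the pairs. No fold of these last 3 genes reached 1.25-fold in either pair.

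Several of the brightest members differed little between the populations. Tspan31, whose gene is a neighbour of Cdk4, was at 12.64 in the CORIN+ and 12.51 in the CORIN- array of the ESC-derived pair, and at 12.54 in CORIN+ and 12.47 in CORIN- fetal cells. Tspan3 was at 12.06 in ESC-derived CORIN+ cells and 11.97 in their CORIN- counterparts, and at 12.13 in CORIN+ and 12.21 in CORIN- fetal cells. Tspan14 of the TspanC8 group was at 12.14 in the CORIN+ and 12.15 in the CORIN- array of the ESC-derived pair, and at 12.20 in CORIN+ and 12.08 in CORIN- fetal cells. Tspan6 had log2 folds of 0.11 in the ESC-derived and 0.08 in the fetal pair, with all 4 arrays between 11.80 and 12.09. In all, 15 of 29 members differed by less than 1.25-fold in both pairs, beside 74.7% of all genes. Small folds were thus less common among the members than among all genes, as a description with no test. Members were chosen with earlier results known. They also differ from all genes in signal level, as the shares at the end of this paragraph show, and no comparison at like signal was made. Among the 15 were also 2 of the dimmest, both better known from epithelia. Tspan1 was at 6.79 in ESC-derived CORIN+ cells and 6.96 in their CORIN- counterparts, and at 6.84 in CORIN+ and 6.86 in CORIN- fetal cells. Tspan8 had log2 folds of 0.04 in the ESC-derived and 0.01 in the fetal pair, and lay at percentile 8.9 or lower in every array. Signals of 6 of 29 members stayed below the median of all 4 arrays, beside 39.4% of all genes, and those of 9 of 29 stayed above the 80th percentile, beside 17% of all genes.

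Set across the sources, which differ in strain, culture and sort, 6 members separated ESC-derived from fetal cells. The rule, chosen after the values were seen, was that both arrays of one source lie at least 1.5-fold above both of the other. Of 29 members, 4 were higher in the ESC-derived arrays by this rule, namely Upk1b, Tspan12, Tspan2 and Cd151, beside 4.04% of all genes. Tspan2, a gene of oligodendrocytes, was at 9.47 in ESC-derived CORIN+ cells and 9.41 in their CORIN- counterparts, against 8.51 in CORIN+ and 8.64 in CORIN- fetal cells. Cd151 was at 11.22 in ESC-derived CORIN+ cells and 11.17 in their CORIN- counterparts, against 10.48 in CORIN+ and 10.54 in CORIN- fetal cells. Tspan11 and Tspan18, 2 of 29 members, were lower in the ESC-derived arrays, beside 3.28% of all genes. How the arrays of both sources were normalized together is unknown, and source, strain and culture cannot be told apart.

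Among known partners of tetraspanins and the rest of the family, 1 gene was called. Of 25 measured partners (laminin-binding integrins, immunoglobulin-domain partners, proteases, the Norrin receptor, uroplakins and proteins of late endosomes and vesicles), none was at least 2-fold higher or lower in the ESC-derived pair. In the fetal pair 1 was, Timp1, a protease inhibitor that binds CD63. It was at 8.49 in CORIN+ and 6.96 in CORIN- fetal cells (2.88-fold), and at 8.04 in ESC-derived CORIN+ cells and 8.06 in their CORIN- counterparts. Over all genes, 0.376% were called higher and 0.522% lower in the ESC-derived pair, and 3.16% and 0.456% in the fetal pair. A single gene among 25 cannot be read against such shares. The median log2 fold of the partners was -0.03 in the ESC-derived and 0.13 in the fetal pair. The 6 other genes of the family, Tspan10, Upk1a, Prph2, Rom1, Tm4sf19 and Tm4sf20, all lay under 1.25-fold in both pairs, with medians of -0.0066 in the ESC-derived and -0.03 in the fetal pair.

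**Figure D3:**
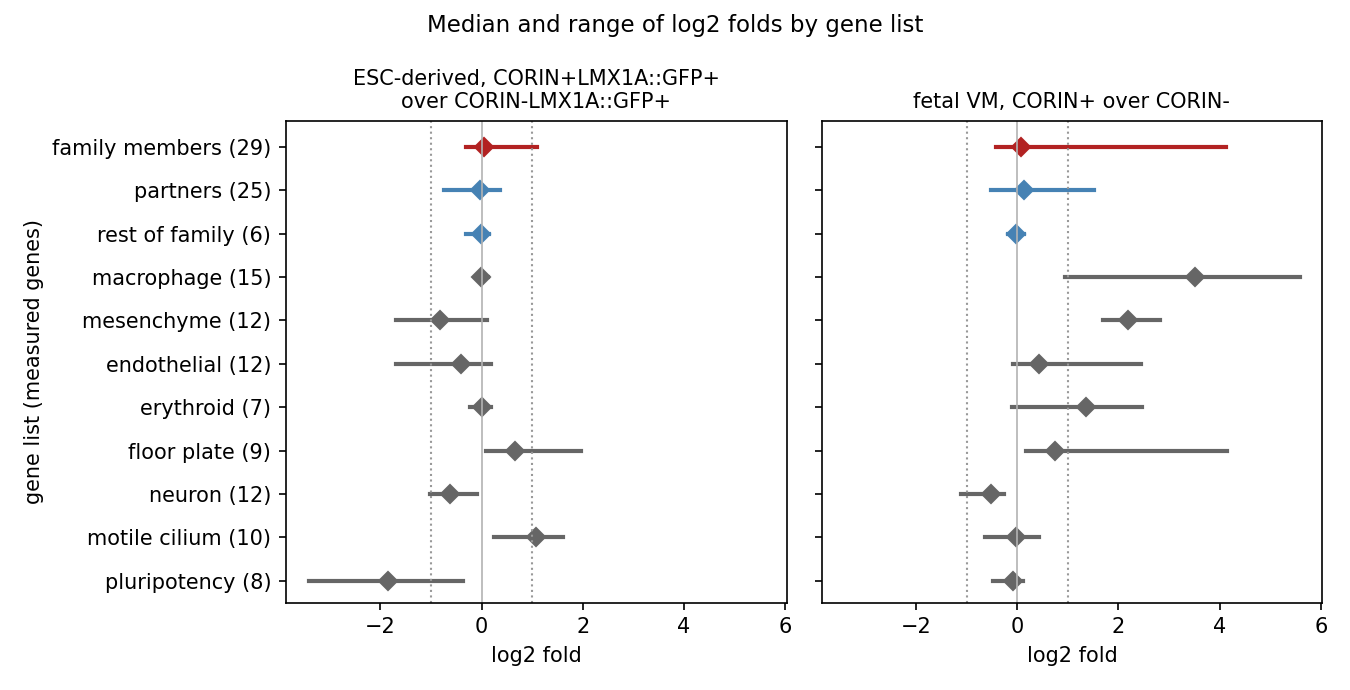
Median (diamond) and range (bar) of the log2 folds of the family, its partners and marker lists of cell types, in the ESC-derived pair (left) and the fetal pair (right), CORIN+ over CORIN-. Each population has 1 array, and the count of genes measured for a list stands behind its name. Dotted lines mark 2-fold; the family medians (0.06 and 0.08) lie near 0, while the fetal macrophage (3.51) and mesenchyme (2.19) medians lie far to the right.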

How the data were processed

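Total RNA of 4 sorted populations was labelled by the authors with a whole-transcript kit, hybridized to Affymetrix whole-transcript arrays and analysed in GeneSpring. The authors deposited log2 signals of 28856 transcript clusters, with array medians from 7.97 to 8.03. For summarization, normalization, filters and build, nothing is given in the sources used here. Clusters were named through the platform annotation, which pairs 21789 clusters with 1 symbol, looked up by gene identifier for 21698 of them. The cluster with the highest mean over the 4 arrays stood for a gene; no member had more than 1. Members and gene lists were chosen with earlier results of these data known. Values in all 4 arrays were given for members called in a pair, the L6 family, Cd37 and Cd53, the 5 brightest, and the 5 highest and 5 lowest folds of each pair. Partners were named when called, apart from Adam10, Fzd4, Ndp, Lrp5, Lrp6 and the uroplakins, named after their values were seen. Alternatives were quantile normalization, centring, 32 added to linear signals, percentile filters, cluster means and thresholds of 1.5-fold and 3-fold. Protein features, planned at first, were not analysed here. The number of arrays limits the precision. Python 3.11.15, numpy 2.4.6, pandas 2.3.3 and matplotlib 3.10.9 were used.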

Additional observations from a re-analysis of the deposited data

How the results depend on the processing

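Tm4sf1 in the ESC-derived pair and Cd53, Tm4sf1, Cd82 and Cd63 in the fetal pair stayed at least 2-fold higher after quantile normalization over 2 or 4 arrays, centring and addition of 32 to linear signals, and no member was called lower. Percentile filters leave a fold as it is and no member has clusters to average, so these alternatives could not move a member's fold; the filters left 28 members at the 20th and 22 at the 50th percentile, the called ones among them. The counts changed with the threshold. In the ESC-derived pair 3 members were higher at 1.5-fold and 0 at 3-fold, and in the fetal pair 6 were higher at 1.5-fold and 2 at 3-fold. With 32 added, the log2 fold of Tm4sf1 in the fetal pair was 1.92 and that of Cd53 was 3.64. Such moves were judged against the scaled median absolute deviation of all folds (0.157 and 0.177), for want of replicates. No paired analysis was possible because each population has 1 array, and for the same reason no array could be left out. Whether dim clusters lie above background is unknown, as no detection calls were used.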
